A study of Mus musculus with 6 samples.

Results

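The genes of fatty acid, glycerolipid and phospholipid synthesis were followed in mouse bone marrow-derived macrophages that had received cancer-cell conditioned medium with its lipids or without them. The group was a list of 36 gene symbols chosen by function, from the export of citrate for fatty acid synthesis to the remodelling of phospholipids. All 36 were found among the 46603 genes of the deposited count tables, and 35 of them passed the filter on low counts that left 12767 genes to test. Macrophages were grown from the bone marrow of C57BL/6/J mice aged 7 weeks, in medium with 10% fetal bovine serum and 20% medium conditioned by L929 cells, a mouse fibroblast line used as a source of macrophage growth factor. On day 6 they were detached and reseeded at 800000 cells per well, and 6 h later they were given the conditioned medium. The with-lipids group (3 libraries) got the medium with lipids present, and the without-lipids group (3 libraries) got it with lipids absent. Both groups thus shared strain, serum and L929 medium and both got tumour-derived medium, so neither was a macrophage culture without conditioned medium. Any further difference between the media of the groups cannot be told apart from that in lipids. The labels do not say which cancer line was used, how lipids were removed, how long the exposure was or whether the 3 libraries of a group came from separate mice or cultures. The p-values below therefore cover only library-to-library spread, and that spread may be technical.

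Cells make fatty acids from citrate that leaves the mitochondrion, which is cleaved to acetyl-CoA, carboxylated to malonyl-CoA and built into palmitate by fatty acid synthase. Elongases and desaturases then lengthen and unsaturate the product, acyl-CoA ligases activate it, and acyltransferases place it on glycerol to form phosphatidic acid, triglyceride and membrane phospholipid. In macrophages this pathway feeds membranes, lipid droplets and lipid mediators, and its transcription is driven largely by the sterol-sensing factor SREBP-1 and by the liver X receptors, with polyunsaturated fatty acids and sterols known to restrain SREBP-1.

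With lipids in the medium, 6 of the 35 tested genes were lower and 0 were higher (edgeR quasi-likelihood test, Benjamini-Hochberg adjusted p under 0.05 over all tested genes). They were Mid1ip1, Fasn, Scd2, Elovl1, Acsl1 and Agpat4, and their levels differed from those without lipids by -15.0% (Elovl1) to -29.2% (Agpat4). The 6 lower genes were 17.1% of the list, against 6.87% of all tested genes called lower and 4.58% called higher. This order did not hold throughout: at an adjusted p of 0.01 the lower members were 2.86% of the list, against 3.48% of all genes, and without with-lipids replicate 2 they were 2.86%, against 3.27%. DESeq2 also called 0 members higher. At an unadjusted p under 0.05, edgeR had 2 members higher, Elovl6 and Fads3, and 9 lower. The share of all tested genes at that cut was not computed. Over the whole list the fold changes were balanced around 0: 19 log2 fold changes (with lipids minus without lipids) were negative and 16 positive, and their median of -0.01 lay beside -0.00 over all tested genes. With library totals in place of trimmed-mean scaling, 5 of the negative ones turned positive and both medians were 0.07. Every one of the 35 was smaller in size than 0.5 on the log2 scale, from -0.50 for Agpat4 to 0.32 for Elovl6. The median size of the 6 called changes was 0.35, and that of the 1462 called genes of the whole table was 0.44.

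Libraries of the with-lipids group held 20778651 to 25323053 counts, and those of the without-lipids group 19429022 to 22330119. All 8 macrophage markers were above 1 CPM (counts per 1000000, after trimmed-mean scaling), and 4 of 4 adipocyte markers had 0 counts in every library, while markers of neutrophils, T cells, B cells, red cells and epithelial cells summed to under 1 CPM and those of dendritic cells and platelets to at most 2.19 CPM. Of the macrophage markers, Cd68 was lower (log2 fold change -0.55) and Itgam (0.56) and Fcgr1 (0.29) were higher with lipids, at edgeR adjusted p of 0.000306, 7.72e-05 and 0.00815. The 3 fibroblast markers were detected, and their summed level was 49.0 to 55.1 CPM with lipids and 56.2 to 80.2 without lipids; Col3a1 was lower with lipids (log2 fold change -0.50, edgeR adjusted p = 0.014). The part of these marker differences in the results below was not tested, and in bulk RNA fewer cells of a type and less RNA per cell cannot be told apart. Scaling mattered for the whole table: 585 of the called genes were higher and 877 lower with trimmed-mean scaling (40.0% of calls higher), while with library totals alone 1241 were higher and 596 lower (67.6% higher).

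**Figure D1:**
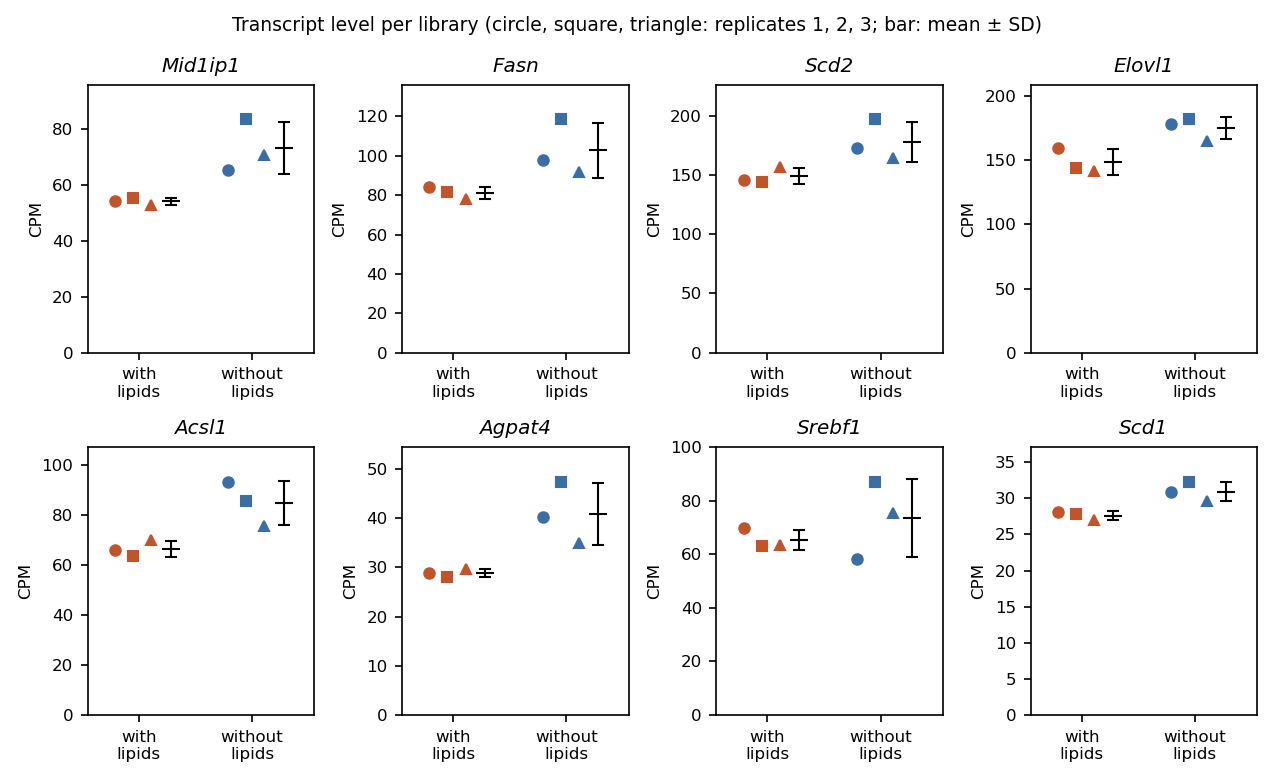
CPM (vertical axes, from 0) in each library for the 6 members called lower and for Srebf1 and Scd1, with lipids at the left and without lipids at the right of each panel; symbols are replicates and bars are the mean ± SD. The groups do not overlap for the 6 called members or for Scd1, but do for Srebf1, whose without-lipids libraries span 58.2 to 87.1 CPM.

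Among the 8 genes that supply and run fatty acid synthesis, Mid1ip1 and Fasn were lower with lipids (25%, against 6.87% of all tested genes). The other 6 did not pass the test, and the median log2 fold change of the 8 was -0.14. Mid1ip1 (chrX:10715013-10719690, GRCm38) encodes a protein that promotes the polymerisation and activity of acetyl-CoA carboxylase. Its level was 54.4, 55.2 and 52.7 CPM with lipids and 65.3, 83.4 and 70.7 CPM without lipids. All 3 with-lipids libraries lay within a narrow band below every without-lipids library, of which replicate 2 was the highest. The means were 54.1 ± 1.24 CPM with lipids and 73.1 ± 9.27 CPM without lipids (SD, n = 3 each), with a log2 fold change of -0.43 (SE 0.086, 95% confidence interval -0.62 to -0.24, edgeR adjusted p = 0.00851). Mid1ip1 was below the threshold under each of the 12 alternative fits, leaving out each library in turn included, with an adjusted p of at most 0.0485.

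Fasn (chr11:120805846-120824547, GRCm38, minus strand) encodes fatty acid synthase, which builds palmitate from malonyl-CoA. It measured 84.0, 81.7 and 77.9 CPM with lipids and 98.0, 118.4 and 91.7 CPM without lipids. The groups did not overlap, and again without-lipids replicate 2 stood highest. Its mean was 81.2 ± 3.11 CPM with lipids and 102.7 ± 13.9 CPM without lipids (SD, n = 3 each), which gave a log2 fold change of -0.34 (SE 0.089, interval -0.53 to -0.14, edgeR adjusted p = 0.0331). This call was lost without any one of the with-lipids libraries and without without-lipids replicate 2, and also with library totals alone and after a correction for GC content and length (log2 fold change -0.41 to -0.22 and edgeR adjusted p 0.00041 to 0.133 over the 12 fits).

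Srebf1 encodes SREBP-1, the factor that drives Fasn and Scd genes. Its level was 69.8, 63.1 and 63.4 CPM with lipids and 58.2, 87.1 and 75.4 CPM without lipids. The groups overlapped, because without-lipids replicate 1 was the lowest of the 6 libraries while the other two without-lipids libraries were the highest. The means of 65.5 ± 3.80 CPM with lipids and 73.6 ± 14.5 CPM without lipids (SD, n = 3 each) differed by a log2 fold change of -0.17 (SE 0.12, interval -0.43 to 0.10, edgeR adjusted p = 0.408). Without that replicate 1 the difference passed the test, at -0.31 (edgeR adjusted p = 0.00569; 0.00569 to 0.916 over the 12 fits).

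No enzyme upstream of Fasn passed the test. Acly, the citrate lyase that makes cytosolic acetyl-CoA, was the most abundant of the 8 at 247.1 to 248.9 CPM with lipids and 249.0 to 269.3 CPM without lipids, with a log2 fold change of -0.07 (edgeR adjusted p = 0.469) that turned to 0.0088 with library totals alone. Slc25a1, the mitochondrial citrate carrier, had 60.3, 57.5 and 58.5 CPM with lipids and 61.6, 69.3 and 69.0 CPM without lipids; the groups did not overlap, yet the log2 fold change of -0.18 missed the threshold (edgeR adjusted p = 0.111). Acaca, the carboxylase that makes malonyl-CoA and that the Mid1ip1 protein acts on, differed by 0.02 (edgeR adjusted p = 0.913). Acss2, which makes acetyl-CoA from acetate, had a log2 fold change of -0.11 and a level of 5.15 to 5.99 CPM over the 6 libraries. It shares 3.9% of its exon bases with Gss on the opposite strand, which had 1514 counts in all against 734 for Acss2. Me1, the malic enzyme that supplies NADPH, was one of the positive members at 0.12 and was not called. Without without-lipids replicate 1, Slc25a1 was called lower too (-0.23, edgeR adjusted p = 0.00645; 0.00645 to 0.596 over the 12 fits).

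**Figure D2:**
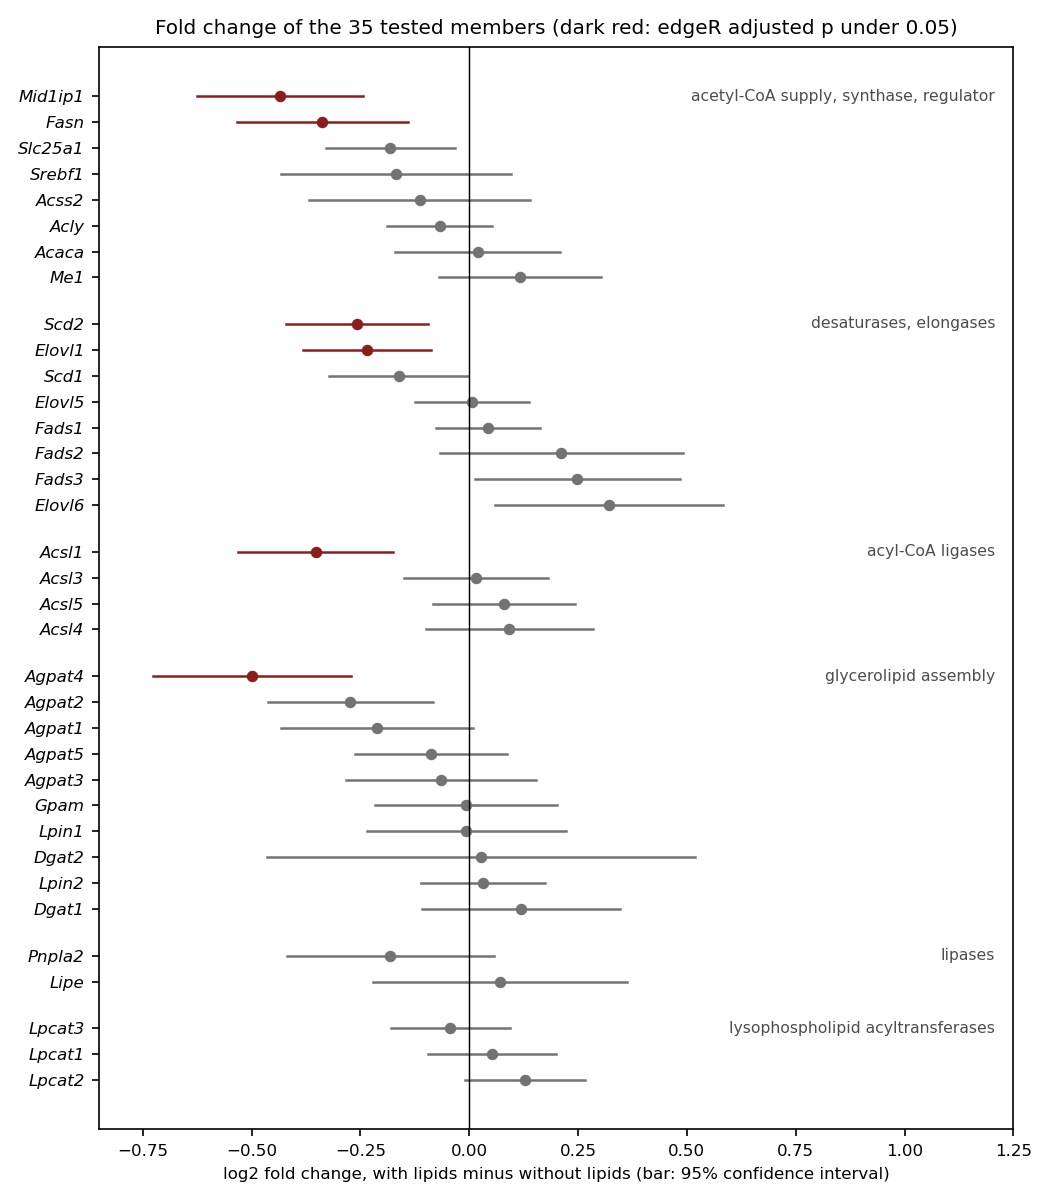
Log2 fold change (horizontal axis, with lipids minus without lipids) with its 95% confidence interval for the 35 tested members, grouped by role; dark red marks an edgeR adjusted p under 0.05. The 6 marked genes lie between -0.50 and -0.24 and fall in 4 of the 6 roles; the other 29 members run from -0.27 for Agpat2 to 0.32 for Elovl6.

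Of the 8 desaturases and elongases, 2 were lower with lipids (25%, against 6.87% of all tested genes). They were Scd2, the stearoyl-CoA desaturase form that leads in these cells, and Elovl1, the elongase of very long saturated chains. The other 6 did not pass the test, and 5 of the 8 fold changes were positive. That of Elovl5 turned negative after a correction for GC content and length, and reached -0.013 when a library was left out. Scd2 (chr19:44293674-44306864, GRCm38) measured 145.8, 143.9 and 156.5 CPM with lipids and 172.8, 196.7 and 164.3 CPM without lipids. The nearest libraries of the groups, with-lipids replicate 3 and without-lipids replicate 3, did not overlap but lay close together. Scd2 averaged 148.8 ± 6.76 CPM with lipids and 177.9 ± 16.8 CPM without lipids (SD, n = 3 each; log2 fold change -0.26, SE 0.074, interval -0.42 to -0.10, edgeR adjusted p = 0.046).

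Scd1, the second stearoyl-CoA desaturase, introduces the same double bond. It was at 28.1, 27.8 and 26.9 CPM with lipids and 30.8, 32.3 and 29.6 CPM without lipids, with no overlap between the groups. Its log2 fold change of -0.16 (SE 0.072, interval -0.32 to -0.00) did not pass the test (edgeR adjusted p = 0.179). Per kilobase of annotated exon, the scale used here to compare genes, Scd2 was 4.83 ± 0.321 times the level of Scd1 with lipids and 5.15 ± 0.266 times without lipids (SD, n = 3 each). Whether the response of Scd2 differed from that of Scd1 was not tested.

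Elovl1 (chr4:118428093-118432953, GRCm38) was at 159.9, 144.2 and 141.8 CPM with lipids and 178.1, 181.8 and 165.1 CPM without lipids. With-lipids replicate 1 came nearest to the without-lipids libraries but stayed below all 3. The mean was 148.7 ± 9.81 CPM with lipids and 175 ± 8.78 CPM without lipids (SD, n = 3 each; log2 fold change -0.24, SE 0.067, interval -0.38 to -0.09, edgeR adjusted p = 0.0449). Scd2 and Elovl1 sat just inside the threshold: both lost their calls with library totals alone (edgeR adjusted p = 0.119 for Scd2 and 0.134 for Elovl1) and without with-lipids replicate 2, with-lipids replicate 3 or without-lipids replicate 2, and Scd2 also without with-lipids replicate 1. Over the 12 fits the adjusted p was 0.0069 to 0.200 for Scd2 and 0.0189 to 0.208 for Elovl1.

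The largest positive fold change of the list belonged to Elovl6, the elongase that turns palmitate into stearate. It was at 18.5, 18.9 and 15.4 CPM with lipids and 16.2, 13.7 and 12.5 CPM without lipids. With-lipids replicate 3 lay below without-lipids replicate 1, so the groups overlapped, and the log2 fold change of 0.32 (SE 0.12, interval 0.06 to 0.58) was not called (edgeR adjusted p = 0.111). It was called higher with library totals alone (0.40, edgeR adjusted p = 0.0472), with no filter (edgeR adjusted p = 0.0283) and without without-lipids replicate 1 (0.44, edgeR adjusted p = 0.00781), over a range of 0.00781 to 0.352 in the 12 fits. Fads2, a front-end desaturase of polyunsaturated chains, and its relative Fads3 also had positive fold changes, 0.21 and 0.25, neither called (edgeR adjusted p = 0.32 and 0.167). Fads1, the next desaturase of the polyunsaturated route, and Elovl5, an elongase of polyunsaturated chains, were at 0.04 and 0.01.

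Of the 4 acyl-CoA ligases, which activate free fatty acids, Acsl1 was lower with lipids (25%, against 6.87% of all tested genes). The other 3 had log2 fold changes between 0.02 and 0.09. Those of Acsl3 and Acsl4 turned negative after the correction for GC content and length, and that of Acsl3 also reached -0.027 when a library was left out. Acsl1 (chr8:46471037-46536051, GRCm38) measured 65.9, 63.8 and 70.0 CPM with lipids and 93.4, 85.8 and 75.8 CPM without lipids. The groups did not overlap, and the without-lipids libraries were spread more widely than those with lipids. Means of 66.6 ± 3.14 CPM with lipids and 85.0 ± 8.82 CPM without lipids (SD, n = 3 each) gave a log2 fold change of -0.35 (SE 0.081, interval -0.53 to -0.17, edgeR adjusted p = 0.0174). The call was lost without with-lipids replicate 1 or 2 or without-lipids replicate 2 (edgeR adjusted p 0.000282 to 0.101 over the 12 fits). Acsl4, which prefers arachidonate, and Acsl5 were the ligases with the most transcript per length. Both were called higher once without-lipids replicate 1 was left out (Acsl4 0.20 and Acsl5 0.17, edgeR adjusted p = 0.0231 and 0.0343), over ranges of 0.0231 to 0.917 and 0.0343 to 0.853 in the 12 fits. Per length, Acsl5 was 6.27 ± 0.527 times Acsl1 with lipids and 4.64 ± 0.198 times without lipids (SD, n = 3 each). This ratio counts all annotated exon bases, 4.864 kb for Acsl5 and 10.483 kb for Acsl1, expressed or not. In CPM, Acsl5 averaged 193.1 with lipids and 182.8 without lipids, against 66.6 and 85.0 for Acsl1. Acsl5 shares 8.3% of its exon bases with Zdhhc6 on the opposite strand, and whether strand was used in counting is not given in the sources used here.

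Glycerolipid assembly had 1 lower gene among 10 (10%, near the 6.87% of all tested genes) and a median log2 fold change of -0.04. Agpat4, a lysophosphatidic acid acyltransferase (chr17:12118704-12219645, GRCm38), had the largest change of the list, at 28.8, 28.1 and 29.7 CPM with lipids and 40.2, 47.4 and 34.9 CPM without lipids. The with-lipids libraries were nearly level and lay below all without-lipids libraries, which spread around a peak in replicate 2. It averaged 28.9 ± 0.762 CPM with lipids and 40.8 ± 6.28 CPM without lipids (SD, n = 3 each; log2 fold change -0.50, SE 0.10, interval -0.73 to -0.27, edgeR adjusted p = 0.0104). The call was lost only without with-lipids replicate 1 or with-lipids replicate 2 among the 12 fits, where the adjusted p reached 0.0585.

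The other 4 acyltransferases of this family, which make phosphatidic acid from lysophosphatidic acid, also had negative log2 fold changes, that of Agpat3 turning to 0.012 with library totals alone, and none passed the test. Agpat2 came nearest, at 30.5, 30.6 and 32.0 CPM with lipids and 33.2, 37.9 and 41.2 CPM without lipids. Its groups did not overlap, and its log2 fold change was -0.27 (edgeR adjusted p = 0.067; 0.00164 to 0.227 over the 12 fits). It was called lower with no filter and without without-lipids replicate 1. Agpat1 followed at -0.21 (edgeR adjusted p = 0.205) and was called without the same replicate (-0.31, edgeR adjusted p = 0.00636; 0.00636 to 0.586 over the 12 fits), while Agpat3 and Agpat5 were at -0.07 and -0.09. Gpam, which adds the first acyl chain to glycerol 3-phosphate, and Lpin1, a phosphatidic acid phosphatase, were both at -0.01 and turned positive with library totals alone. Lpin2, a relative of Lpin1, and Dgat1 and Dgat2, the enzymes that complete triglyceride, were at 0.03, 0.12 and 0.03. Dgat2 was scarce, at 16 to 25 counts per library, so its interval was the widest of the tested members.

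Promoter windows are shown for the 5 lower members that have one in the RefSeq table (GRCm38.p6). Scd2 has none. These 5 genes belong to 4 different steps and were chosen by their call in these data, and shared control was not tested. Each of the 7 windows is the 250 bases before an annotated transcription start, 5′ to 3′ on the gene's strand. The bases just after the start were found in a GENCODE M21 transcript of the gene for every window but that of Mid1ip1. The Mid1ip1 window lies inside the span given above for the gene, as do those of Agpat4 and of the downstream starts. Capitals mark every match to the CCAAT box (CCAAT, or ATTGG on the other strand), the GC box (GGGCGG, or CCGCCC on the other strand) and the sterol element (TCACNCCAC, found once, on the other strand); the E-box CACGTG was searched too and not found.
Mid1ip1, chrX:10717115-10717364, plus strand: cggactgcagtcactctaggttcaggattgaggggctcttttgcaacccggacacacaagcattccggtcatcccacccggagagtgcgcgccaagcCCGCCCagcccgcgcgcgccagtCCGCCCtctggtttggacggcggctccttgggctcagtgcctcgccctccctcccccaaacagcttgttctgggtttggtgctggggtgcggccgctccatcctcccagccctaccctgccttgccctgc
Fasn, chr11:120824548-120824797, minus strand: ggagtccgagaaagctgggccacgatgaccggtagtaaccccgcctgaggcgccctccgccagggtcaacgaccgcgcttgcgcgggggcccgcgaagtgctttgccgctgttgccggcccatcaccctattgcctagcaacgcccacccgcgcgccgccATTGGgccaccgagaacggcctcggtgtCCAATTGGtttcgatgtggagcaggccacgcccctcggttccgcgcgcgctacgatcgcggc
Elovl1, upstream start, chr4:118427843-118428092, plus strand: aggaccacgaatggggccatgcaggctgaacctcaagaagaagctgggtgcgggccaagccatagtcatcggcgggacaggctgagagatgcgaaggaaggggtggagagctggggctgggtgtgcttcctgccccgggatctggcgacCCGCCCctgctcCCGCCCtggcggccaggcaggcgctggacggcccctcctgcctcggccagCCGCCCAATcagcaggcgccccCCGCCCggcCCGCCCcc
Elovl1, downstream start, chr4:118429451-118429700, plus strand: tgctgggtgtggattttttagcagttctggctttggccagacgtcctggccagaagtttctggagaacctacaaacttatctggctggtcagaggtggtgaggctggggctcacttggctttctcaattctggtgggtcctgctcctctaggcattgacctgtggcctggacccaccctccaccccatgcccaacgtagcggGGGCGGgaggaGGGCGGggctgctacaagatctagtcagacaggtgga
Acsl1, upstream start, chr8:46470787-46471036, plus strand: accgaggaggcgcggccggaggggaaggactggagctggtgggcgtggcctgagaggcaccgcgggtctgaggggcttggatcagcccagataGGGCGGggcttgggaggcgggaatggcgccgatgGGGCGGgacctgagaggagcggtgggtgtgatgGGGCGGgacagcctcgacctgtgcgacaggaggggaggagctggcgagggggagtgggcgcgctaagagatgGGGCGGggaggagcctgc
Acsl1, downstream start, chr8:46490716-46490965, plus strand: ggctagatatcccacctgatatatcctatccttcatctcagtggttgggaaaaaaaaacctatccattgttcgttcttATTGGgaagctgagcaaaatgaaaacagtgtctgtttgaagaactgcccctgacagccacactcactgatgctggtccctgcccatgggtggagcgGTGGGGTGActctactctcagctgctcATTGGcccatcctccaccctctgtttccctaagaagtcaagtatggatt
Agpat4, chr17:12119034-12119283, plus strand: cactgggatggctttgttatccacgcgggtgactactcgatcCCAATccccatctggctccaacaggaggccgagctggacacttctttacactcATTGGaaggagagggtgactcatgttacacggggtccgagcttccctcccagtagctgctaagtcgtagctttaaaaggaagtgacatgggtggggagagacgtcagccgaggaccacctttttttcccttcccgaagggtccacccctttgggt
With -1 as the base before the start, the Mid1ip1 window held GC boxes beginning at -153 and -130 and no CCAAT box. The Fasn window held CCAAT boxes at -90, -62 and -59, and those at -62 and -59 overlap in opposite directions. The upstream Elovl1 window had 5 GC boxes and a CCAAT box at -35 that overlaps the GC box at -39, and the downstream one 2 GC boxes only. In the upstream Acsl1 window there were 4 GC boxes only, while the downstream window had CCAAT boxes at -172 and -49 with the sterol element at -76 between them. The Agpat4 window had CCAAT boxes at -208 and -155.

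Of the 36 members, 30 had a promoter window in the table, with 41 windows in all; Scd1, Scd2, Fads1, Agpat5, Dgat1 and Dgat2 had none. A CCAAT box was in 57.1% of the 7 windows of lower members, in 43.9% of the member windows and in 33.9% of all 32841 promoter windows. A GC box was in 57.1% of the lower members' windows, in 63.4% of the member windows and in 32.7% of all windows. The sterol element was in 1 member window (2.44%), the downstream one of Acsl1, against 1.05% of all windows, and the E-box was in 12.2% of the member windows against 6.02%. Both strands were searched, and windows without the transcript match described above were kept in these shares.

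Lipases had no called member. Pnpla2 encodes adipose triglyceride lipase, which starts triglyceride breakdown, and was at 53.8, 50.7 and 48.8 CPM with lipids and 47.0, 61.1 and 65.6 CPM without lipids. Without-lipids replicate 1 was the lowest of all and the groups overlapped (log2 fold change -0.18, interval -0.42 to 0.06, edgeR adjusted p = 0.317). Left without that library, Pnpla2 passed the test at -0.31 (edgeR adjusted p = 0.00271; 0.00271 to 0.689 over the 12 fits). Lipe, the hormone-sensitive lipase, was at 17.9, 15.5 and 18.0 CPM with lipids and 12.8, 18.8 and 17.3 CPM without lipids, overlapping groups with a log2 fold change of 0.07 (interval -0.22 to 0.36, edgeR adjusted p = 0.779). Mgll, the monoacylglycerol lipase, was the 1 member below the filter, with 2, 5 and 1 counts in the with-lipids libraries and 8, 5 and 7 in the without-lipids libraries, and was not tested.

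The lysophosphatidylcholine acyltransferases remodel phosphatidylcholine by putting an acyl chain back on lysophospholipid, and none of the 3 was called. Lpcat2, which also makes platelet-activating factor, was at 72.8, 78.2 and 79.0 CPM with lipids and 67.6, 70.9 and 71.9 CPM without lipids. Every with-lipids library was above every without-lipids library, but the log2 fold change of 0.13 (interval -0.01 to 0.27) missed the threshold (edgeR adjusted p = 0.216). Lpcat1 was at 44.3, 43.9 and 47.6 CPM with lipids and 42.9, 43.1 and 44.9 CPM without lipids, with overlap and a log2 fold change of 0.05 (edgeR adjusted p = 0.661). Lpcat3, which favours polyunsaturated chains, was at -0.04, and at 0.034 with library totals alone. It shares 10.2% of its exon bases with Emg1 on the opposite strand.

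Levels per length rest on all annotated exon bases of a gene, and which transcript forms were expressed was not tested. Ordered by level per length with lipids, the most abundant transcript of the list was Elovl1, at 54.5 ± 3.60 CPM per kilobase of exon with lipids and 64.2 ± 3.22 without lipids (SD, n = 3 each). Acly came next at 47.0 with lipids and 49.3 without lipids. Acsl5 (39.7 with lipids, 37.6 without lipids), Fads1 (36.2 and 35.2) and Acsl4 (35.6 and 33.4) followed; without lipids these 3, with Mid1ip1 between Fads1 and Acsl4, did not differ beyond their spread; with lipids only Fads1 and Acsl4 lay within it. Scd2 and Slc25a1 had the same level with lipids, 27.2 CPM per kilobase, ahead of Mid1ip1 at 25.4; without lipids Mid1ip1 (34.4) was above Scd2 (32.6) and Slc25a1 (30.8). Fasn was far lower per length, at 7.42 with lipids and 9.38 without lipids, and Srebf1 was at 11.6 and 13.1. At the bottom were Acss2 (0.537 with lipids, 0.582 without lipids), Dgat2 (0.293 and 0.288) and Mgll (0.0216 and 0.0661). The 6 lower members thus ran from the top of this order to its middle: Agpat4 was at 10.7 with lipids and 15.1 without lipids, and Acsl1 at 6.35 and 8.11.

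**Figure D3:**
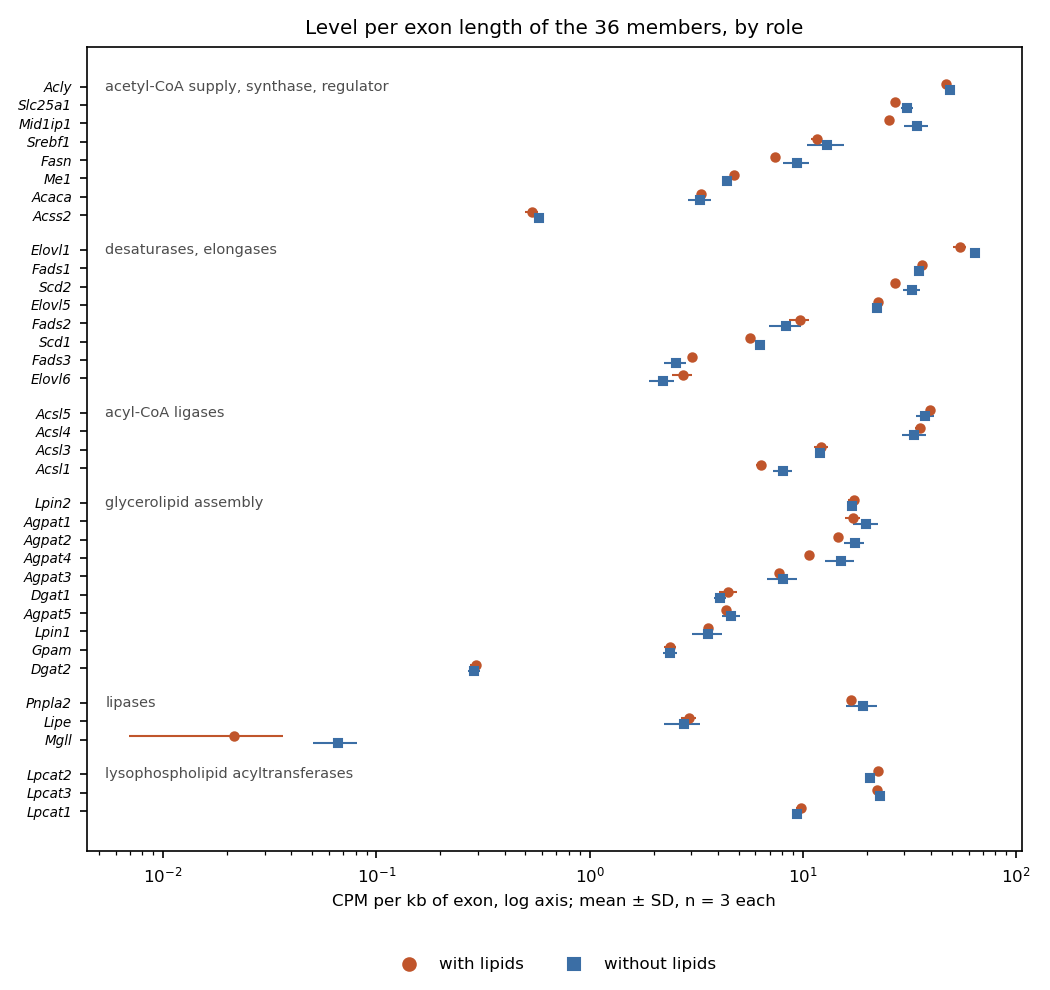
Level of the 36 members in CPM per kilobase of exon (horizontal log axis; mean ± SD, n = 3 each), grouped by role, with lipids as circles and without lipids as squares. Levels run from 0.0216 for Mgll to 64.2 for Elovl1, and the 2 groups lie close together for most genes at this scale.

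Across the list, 10 of the 35 tested members (28.6%) had all with-lipids libraries below all without-lipids libraries, against 15.8% of all tested genes. In the other direction 3 members (8.57%), Me1, Fads3 and Lpcat2, had all with-lipids libraries above, against 14.7% of all genes. The without-lipids libraries were the more variable: the median SD of log2 CPM over members was 0.0630 with lipids and 0.134 without lipids, and it was larger without lipids in 26 of the 35. All tested genes shared this feature, with medians of 0.0711 with lipids and 0.127 without lipids. Among the without-lipids libraries, replicate 2 was the highest for 16 of the 35 members (45.7%), against 30.9% of all genes, and the lowest for 1 (2.86%), against 26.3% of all genes. Counts of calls also changed with the library left out, and the cause was not tested. Without without-lipids replicate 1, 11 members were lower (edgeR, 31.4%, against 15.1% of all genes). In that fit 3 of the 35 members were higher, against 1566 of 13039 genes. Without without-lipids replicate 2 only Agpat4 and Mid1ip1 remained lower (5.71%, against 3.69% of all genes). Without without-lipids replicate 3 the same 6 members were lower as in the reported fit (17.1%, against 6.69% of all genes). Leaving out with-lipids replicate 1 left 2 lower members (5.71%, against 3.67% of all genes), leaving out replicate 2 left 1 (2.86%, against 3.27%) and leaving out replicate 3 left 3 (8.57%, against 3.75%), each set including Mid1ip1.

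**Figure D4:**
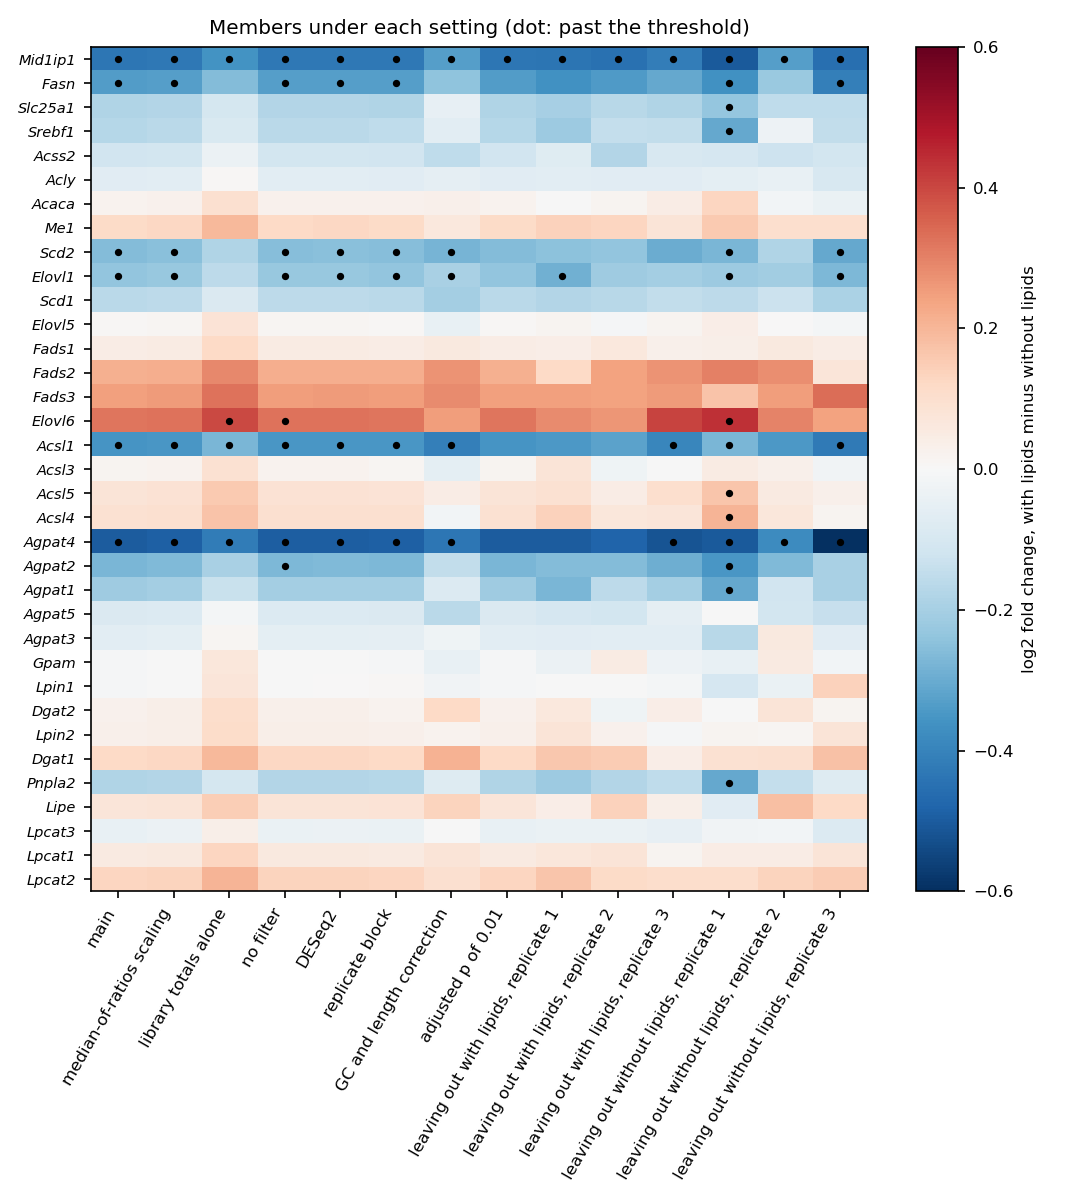
Log2 fold change (colour, with lipids minus without lipids; red is higher and blue lower with lipids) of the 35 tested members in the reported fit and under each alternative, with a dot where the member passed the threshold. Mid1ip1 has a dot in every column, and the column without without-lipids replicate 1 has the most dots, 11 lower and 3 higher. That fit also called 1975 genes lower and 1566 higher among the 13039 tested.

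Beyond the list, 102 further genes of lipid synthesis, activation, assembly and breakdown were examined, of which 83 were tested. Of these, 8 were lower with lipids (9.64%, near the 6.87% of all tested genes) and 0 higher (4.58% of all tested genes), and the median log2 fold change was -0.07 (edgeR). At an unadjusted p under 0.05, edgeR had 5 of them higher and, with Nr1h3 (below) counted in, 15 lower. DESeq2 also called 0 higher. The 8 were spread over desaturation, activation, assembly, breakdown and head-group steps, and none was among the 16 tested genes of fatty acid supply. Pla2g7, the plasma platelet-activating factor acetylhydrolase, had the largest change, a log2 fold change of -0.57 (edgeR adjusted p = 0.000807). Next by p were Degs1, the dihydroceramide desaturase, at -0.40 (edgeR adjusted p = 0.00124), and Lipa, the lysosomal acid lipase, at -0.42 (edgeR adjusted p = 0.0014). Acot13, an acyl-CoA thioesterase, Abhd5, the co-activator of adipose triglyceride lipase, and Slc27a1, a fatty acid transport protein, were at -0.39, -0.35 and -0.46. Pcyt1a, the rate-limiting enzyme of phosphatidylcholine synthesis by the choline route, was at -0.26, and Pnpla7, a lysophospholipase, at -0.35.

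The sterol-sensing genes around Srebf1 were not called. Srebf2, the relative of Srebf1 that drives cholesterol synthesis, was at -0.21 (interval -0.40 to -0.01, edgeR adjusted p = 0.169). Insig1, which holds SREBP in the endoplasmic reticulum, was at -0.18, and Scap, its escort protein, at -0.14. Nr1h3, which encodes liver X receptor alpha, a known activator of Srebf1, Fasn and Scd genes, was lower with lipids. Its level was 10.8, 11.1 and 10.4 CPM with lipids and 15.8, 17.7 and 18.5 CPM without lipids, with a wide gap between the groups (log2 fold change -0.68, edgeR adjusted p = 0.00111). Whether the level of Nr1h3 bears on that of Srebf1, Fasn or the Scd genes was not tested.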

How the data were processed

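RNA for the 6 macrophage libraries was prepared with RNeasy and a TruSeq stranded mRNA kit, per the labels' protocols. The authors deposited raw whole-number counts per Ensembl gene, 1 table per library. Per the submitters' processing notes, the build was GRCm38.p4 and the tools included HTSeq, TopHat2 2.1.0 and DESeq2. What each tool did, the gene annotation and the strand setting are stated in no label, and genes that overlap on opposite strands may share reads. Of the 46603 gene IDs, 46091 were named from GENCODE M21, and no row held unassigned reads. Replicates differed by more than sampling noise in every pair (chi-square per gene 2.68 to 4.82 with lipids and 7.92 to 20.3 without lipids), so all 6 were kept as separate samples.

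Counts were filtered with filterByExpr (minimum count 10, minimum total 15), scaled by the trimmed mean (TMM) and tested with edgeR 4.0.16 in R 4.3.3 by the quasi-likelihood F test, two-sided; p-values were adjusted by Benjamini-Hochberg over the 12767 genes and called under 0.05. Standard errors come from the F statistic. CPM is TMM-scaled counts per 1000000, and levels between genes are CPM per 1000 bases of union exon. A count of 3 in a library was 0.115 to 0.159 CPM, and such limits cover counting error only. The code was also tested on simulated data. Alternatives were DESeq2 1.42.0, median-of-ratios scaling, library totals, no filter, a replicate block, a correction for GC content and length (mgcv 1.9.3), a stricter threshold and leaving out each library.

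Members, gene lists and tests were chosen with earlier results of these data known, so they are not independent evidence. Values per library are given for each called member, for Fasn, Srebf1, Scd1 and Scd2, and for the 2 members with the largest fold changes in a role with no call; those of Slc25a1, Elovl6, Agpat2 and Mgll were added after their values were seen. Other pathway genes named are the called ones and Srebf2, Nr1h3, Insig1 and Scap. Of these, only Nr1h3 has values per library, which were not planned.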

Additional observations from a re-analysis of the deposited data

How the results depend on the processing

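All 6 called members kept a negative log2 fold change under every alternative run, and all 6 calls held with median-of-ratios scaling, with no filter and with DESeq2. With library totals alone, 3 members were lower (8.57%, against 4.67% of all genes). In that fit 1 of the 35 tested members was higher, against 1241 of the 12767 tested genes, and 1 other pathway gene was higher. It also changed the sign of 5 uncalled members (Acly 0.0088, Gpam 0.070, Agpat3 0.012, Lpin1 0.070, Lpcat3 0.034). With no filter, 7 members were lower (19.4%, against 5.42% of all genes) and 1 was higher. That fit called 1009 genes higher and 1243 lower among the 22922 it tested, and 2 other pathway genes higher. DESeq2 put Lpin1 at 0.00025. Whether same-numbered libraries of the 2 groups are pairs is not known. Deviations from the group means correlated at -0.01, -0.09 and 0.18 between same-numbered libraries and at -0.13 to 0.16 between the others. These correlations cannot exclude a shared mouse or batch. A replicate block left 6 members lower (17.1%, against 7.34% of all genes) and 0 higher. It called 1 other pathway gene higher and 715 genes higher and 937 lower over the whole table, and put Lpin1 at 0.0058. A correction for GC content and length left 5 members lower (14.3%, against 9.34% of all genes). It called 1 other pathway gene higher and turned Elovl5 (-0.044), Acsl3 (-0.056) and Acsl4 (-0.014) negative. At an adjusted p of 0.01, 1 member (Mid1ip1), 4 other pathway genes and 444 genes over the whole table were lower, and 216 genes were higher. The causes of these shifts were not tested, apart from the stricter threshold.

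Leaving out 1 library at a time gave 1 to 11 lower and 0 to 3 higher members, a member median of -0.05 to -0.02, 423 to 1975 lower and 219 to 1566 higher genes, and 4 to 18 lower and 0 to 7 higher other pathway genes. The highest member counts came without without-lipids replicate 1, and the lowest count of lower members without with-lipids replicate 2. Uncalled members whose sign changed in this way ranged from -0.041 to 0.13 (Acaca), -0.013 to 0.041 (Elovl5), -0.027 to 0.077 (Acsl3), -0.046 to 0.053 (Gpam), -0.17 to 0.057 (Agpat3), -0.10 to 0.14 (Lpin1), -0.0073 to 0.078 (Lpin2), -0.024 to 0.077 (Dgat2) and -0.069 to 0.18 (Lipe). With 3 libraries a group, and with the member changes all under 0.5 on the log2 scale, a miss of the threshold does not show that a level was the same; Dgat2 and Mgll were further limited by low counts.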
